A study of Mus musculus with 48 samples.

Results

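The genes described here are the 10 protein-coding neighbours of *Brd1* on mouse chromosome 15 that are named *Zbed4*, *Alg12*, *Creld2*, *Pim3*, *Mlc1*, *Panx2*, *Trabd*, *Tubgcp6*, *Hdac10* and *Plxnb2*. They were chosen as genes near *Brd1*, with earlier results of these data known, and do not include every protein-coding gene lying among them. Each symbol matched a single Ensembl identifier among the 52636 genes of the deposited table. The question was whether transcripts of genes linked to the targeted *Brd1* allele differed between genotypes, with or without antidepressant treatment.

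RNA was sequenced from amygdala punches of 48 female mice aged 8-11 weeks, with 8 libraries in each of 6 groups. All mice carried the strain name C57BL/6NTac-Brd1, and were either wild type (WT) or heterozygous for a *Brd1* allele that lacks exons once flanked by loxP sites (Brd1+/-). WT and Brd1+/- mice each received saline vehicle, imipramine at 10 mg/kg (IMN) or fluoxetine at 5 mg/kg (FLX), giving WT vehicle, Brd1+/- vehicle, WT IMN, Brd1+/- IMN, WT FLX and Brd1+/- FLX. IMN is a tricyclic antidepressant and FLX a selective serotonin reuptake inhibitor. Per the study's methods, every mouse, vehicle controls included, had been through a forced swim test shortly before its brain was taken. The Brd1+/- mice come from a single targeted line, heterozygous from birth and in no cell type alone, so the deletion and the DNA linked to it cannot be told apart by genotype.

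BRD1 is a scaffold protein of histone acetyltransferase complexes that acetylate histone H3. A deletion made in embryonic stem cells is inherited together with the DNA around it, so the genes beside a targeted locus are the place where an effect of the altered sequence in cis, or of linked variants from the donor cells, can appear. The neighbours of *Brd1* have unrelated functions, from sugar assembly in the endoplasmic reticulum (*Alg12*) to ion homeostasis in astrocytes (*Mlc1*) and axon guidance (*Plxnb2*).

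Expression was given as TPM, a measure of transcripts per length of gene in which each library sums to about the same total, here 999524 to 999772. The depth behind each value is unknown from TPM. Libraries held between 23420 and 27252 genes above 0. All 8 amygdala markers (*Prkcd*, *Crh*, *Sst*, *Tac2*, *Nts*, *Rspo2*, *Etv1* and *Slc17a6*) had a mean above 0 in every group, with a summed level between 326 and 1940 TPM across libraries. *Sst*, with a mean of 779 TPM, made up most of that sum. Not every library held each marker, as *Crh* and *Tac2* had a lowest value of 0.0 TPM. The lowest values of *Rspo2* and *Slc17a6* were 0.0818 and 0.085 TPM. Tissue composition varied between punches. The summed level of 5 choroid plexus markers ran from 6.26 to 29400 TPM. It was at least 1000 TPM in 9 libraries, 2 in each Brd1+/- group and 1 in each WT group. With treatments averaged, all 5 markers were higher in Brd1+/- mice. By limma 2 of them had an unadjusted p under 0.05 (9.12% of all genes) and 0 an adjusted p under 0.05. The summed level of 7 striatal projection neuron markers ran from 130 to 8000 TPM. In the vehicle groups, the summed level of 6 oligodendrocyte markers was 2990 ± 3240 TPM in WT and 6990 ± 4570 TPM in Brd1+/- mice (SD, n = 8 each). Marker values are given again beside genes that moved with them. In such tissue, fewer cells of a type and less RNA per cell cannot be told apart.

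All 10 genes lay on the side of *Brd1* with higher coordinates, between 17.4 and 421.3 kb from its nearest end (GRCm38). In order they were *Zbed4* (ENSMUSG00000034333, chr15:88751660-88784516), *Alg12* (ENSMUSG00000035845, chr15:88805244-88819318), *Creld2* (ENSMUSG00000023272, chr15:88819646-88826683), *Pim3* (ENSMUSG00000035828, chr15:88862186-88865726), *Mlc1* (ENSMUSG00000035805, chr15:88955884-88979007), *Panx2* (ENSMUSG00000058441, chr15:89059734-89073567), *Trabd* (ENSMUSG00000015363, chr15:89075124-89087077), *Tubgcp6* (ENSMUSG00000051786, chr15:89098357-89123112), *Hdac10* (ENSMUSG00000062906, chr15:89123307-89128700) and *Plxnb2* (ENSMUSG00000036606, chr15:89155549-89180788). *Brd1* itself (ENSMUSG00000022387) covers chr15:88687034-88734233 on the minus strand. The 10 genes are part of the 18 other protein-coding genes within 500 kb of *Brd1*. On the side with lower coordinates this window held *Zdhhc25*, which was listed at 0 in every library. *Tubgcp6* shares 998 exonic bases with *Selenoo* on the opposite strand, and *Trabd* shares 88 with the antisense gene *1810021B22Rik*. Whether the strand of the reads was used in counting is not given in the sources used here, so the values of *Tubgcp6* and *Trabd* are uncertain to that extent.

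*Alg12* and *Creld2* are transcribed away from each other from starts 328 bases apart. Their promoter sequences are shown because 173 of the 300 bases are common to both and because both hold the same endoplasmic reticulum stress response element (ERSE), the motif through which chaperone genes are known to be induced by unfolded proteins. Each sequence is the RefSeq promoter on GRCm38.p6, 5′ to 3′ on the strand of its gene, with the fixed letters of the ERSE in capitals. They cover chr15:88819269-88819568 on the minus strand (*Alg12*) and chr15:88819396-88819695 on the plus strand (*Creld2*).
Alg12: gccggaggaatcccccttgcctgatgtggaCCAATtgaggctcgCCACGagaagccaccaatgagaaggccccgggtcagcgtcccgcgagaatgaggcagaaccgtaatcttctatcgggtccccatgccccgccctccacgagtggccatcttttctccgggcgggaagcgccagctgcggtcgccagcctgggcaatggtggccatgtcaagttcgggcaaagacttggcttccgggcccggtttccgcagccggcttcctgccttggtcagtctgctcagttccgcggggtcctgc
Creld2: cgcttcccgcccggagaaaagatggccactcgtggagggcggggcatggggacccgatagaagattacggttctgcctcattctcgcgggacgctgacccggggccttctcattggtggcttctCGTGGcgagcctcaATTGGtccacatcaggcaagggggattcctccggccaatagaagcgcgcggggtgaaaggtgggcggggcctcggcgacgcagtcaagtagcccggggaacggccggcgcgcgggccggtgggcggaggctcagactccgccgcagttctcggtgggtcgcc
The motif searched on both strands was CCAAT, any 9 bases and CCACG, and the match at chr15:88819520-88819538 has its nearest base 202 bases before the RefSeq start of *Alg12* and 108 bases before that of *Creld2*. Of 32851 mouse promoters of the same length, 39 (0.119%) held this motif. Promoters were found for 8 of the 10 genes, and *Alg12* and *Creld2* were those with a match. For comparison, 6 of the 15 endoplasmic reticulum stress genes with a promoter entry held it (*Calr*, *Derl3*, *Dnajc3*, *Hsp90b1*, *Hspa5* and *Pdia6*). A cAMP response element (TGACGTCA) was present in none of the 8 promoters and in 1.79% of all. A match is a description of letters and does not show a site in use.

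*Brd1*, the targeted gene, was lower in Brd1+/- than in WT mice under each treatment. In vehicle mice the lowest, median and highest of 8 libraries were 26.5, 37.9 and 41.0 TPM in WT and 21.8, 26.2 and 30.6 TPM in Brd1+/-. In IMN mice they were 31.9, 37.3 and 41.0 TPM against 16.6, 22.8 and 29.5 TPM. In FLX mice they were 24.9, 33.1 and 39.3 TPM against 18.0, 24.4 and 27.2 TPM. The genotypes did not overlap under IMN and overlapped in the other treatments, where 5 (vehicle) and 4 (FLX) of the 8 Brd1+/- libraries lay below the lowest WT library. The difference averaged over treatments was -0.54 ± 0.06 in log2(TPM + 0.1) (SE, 24 against 24 libraries, adjusted p = 4.02e-07, limma with Benjamini-Hochberg adjustment over all genes tested). Within treatments it was -0.45 in vehicle (adjusted p = 0.0512), -0.68 in IMN (adjusted p = 0.102) and -0.49 in FLX (adjusted p = 0.0362), so that *Brd1* itself passed the threshold of 0.05 in FLX and over all treatments. Exact two-sided permutation tests of 8 against 8 libraries gave p = 0.00109, 0.000155 and 0.000777, where 0.000155 is the smallest value 12870 arrangements can give. TPM of the whole gene also counts exons outside the deletion. Every log2 difference below is Brd1+/- minus WT, or drug minus vehicle, on the same scale.

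None of the 10 neighbours passed the threshold between genotypes when the treatments were averaged. The adjusted p was under 0.05 for 0 of the 10, against 0.286% of the 27944 genes tested, and the unadjusted p for 2 of the 10, against 9.12% of all genes. Both were lower, as 3.85% of all genes were at that p. They were *Panx2* (-0.27, unadjusted p = 0.00958, adjusted p = 0.354) and *Trabd* (-0.23, unadjusted p = 0.0217, adjusted p = 0.444). The median over the 10 was -0.0841, beside 0.0069 over all genes, and 2 of the 10 differences were above 0. *Zbed4*, the nearest gene, differed by -0.0018 (95% CI -0.12 to 0.116), an interval that holds no change of the size seen for *Brd1*. The intervals of *Alg12* (-0.253 to 0.0693), *Creld2* (-0.266 to 0.0596), *Pim3* (-0.171 to 0.298) and *Mlc1* (-0.159 to 0.201) likewise did not reach the *Brd1* difference. Nor did those of *Panx2* (-0.472 to -0.0692), *Trabd* (-0.422 to -0.035), *Tubgcp6* (-0.246 to 0.146), *Hdac10* (-0.394 to 0.0528) and *Plxnb2* (-0.343 to 0.19). The plot of differences by distance shows that, apart from *Brd1* itself, values whose interval lay wholly below 0 began at 325.5 kb from it. Of the 22 genes of any kind tested within 500 kb, 0 were called and 4 had an unadjusted p under 0.05, all lower in Brd1+/-. They were *Panx2*, *Trabd* and the MAP kinase genes *Mapk12* and *Mapk11*, and none lay within 250 kb, where 8 genes were tested.

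**Figure D1:**
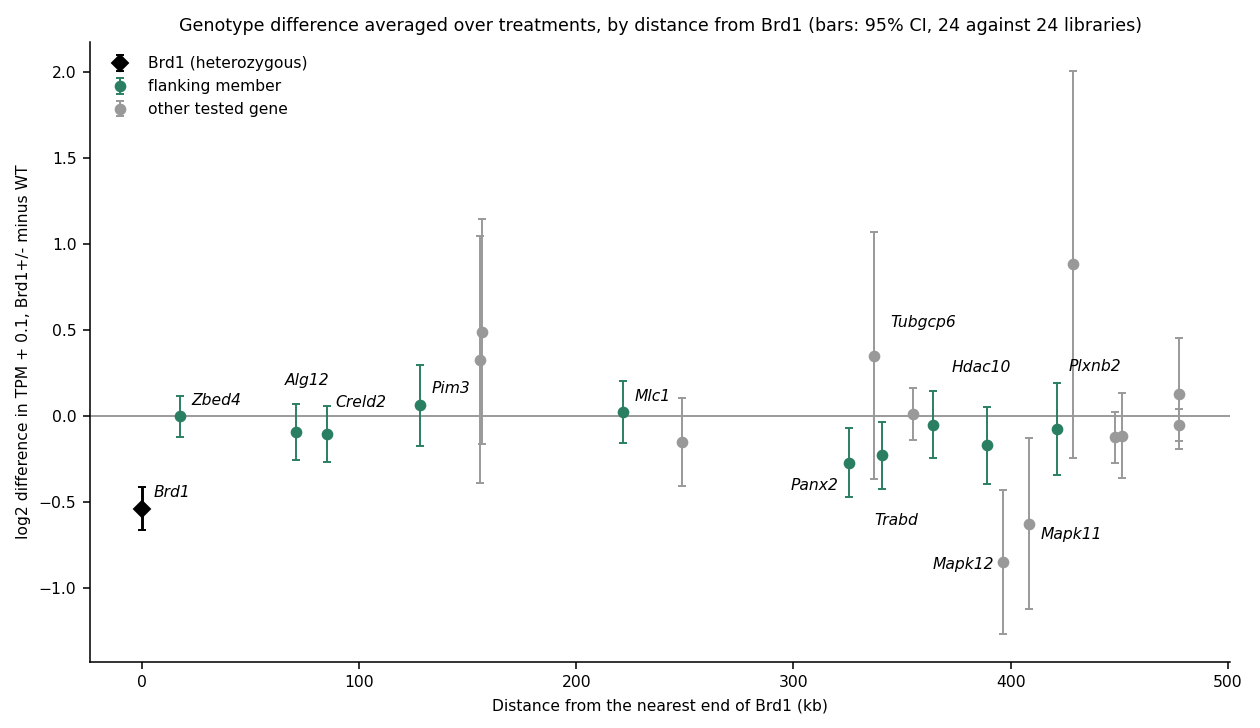
Genotype difference averaged over the 3 treatments, as Brd1+/- minus WT in log2(TPM + 0.1), against the distance in kb from the nearest end of *Brd1* for each gene tested within 500 kb, with bars for the 95% CI over 24 against 24 libraries. *Brd1* stands at -0.54 while *Zbed4* at 17.4 kb stands at -0.0018, and *Mapk12* (-0.85) at 396.4 kb and *Mapk11* (-0.62) at 408.3 kb lie below *Brd1*, with wider intervals.

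*Zbed4* encodes a BED-type zinc finger protein of a family derived from a DNA transposase. It had the lowest level of the 10, with a mean of 2.16 TPM over the 48 libraries, and a narrow range, 1.83 to 2.84 TPM. Its group means ran from 2.04 ± 0.115 TPM in Brd1+/- IMN to 2.26 ± 0.23 TPM in Brd1+/- FLX (SD, n = 8). The genotypes overlapped under every treatment and the differences were -0.04 in vehicle, -0.06 in IMN and 0.09 in FLX, none past the threshold. The 3 other *Zbed* genes examined (*Zbed3*, *Zbed5* and *Zbed6*) gave 0 calls by limma in any of the 10 comparisons made and 0 unadjusted p-values under 0.05 between genotypes.

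*Alg12* encodes the mannosyltransferase that adds a late mannose to the lipid-linked sugar used for N-glycosylation, and *Creld2* encodes a secreted protein of the endoplasmic reticulum that is induced by unfolded proteins. *Alg12* had a mean of 11.1 TPM, with group means from 10.2 ± 1.75 TPM (Brd1+/- IMN) to 13.1 ± 2.13 TPM (WT FLX). Its genotype differences were -0.01 in vehicle, -0.01 in IMN and -0.25 in FLX, the last with an unadjusted p of 0.0646. *Creld2* had a mean of 24.5 TPM. In vehicle mice its lowest, median and highest values were 21.5, 27.6 and 40.0 TPM in WT and 19.8, 23.2 and 27.7 TPM in Brd1+/-. The groups overlapped, with 2 of the 8 Brd1+/- libraries below the lowest WT library. The difference was -0.24 ± 0.11 (SE, unadjusted p = 0.046, adjusted p = 0.567, exact permutation p = 0.0361) and was -0.05 under IMN and -0.02 under FLX. The highest WT vehicle library for *Creld2* was also the library with the highest choroid plexus marker sum (29400 TPM). Without the 9 choroid plexus-rich libraries the averaged *Creld2* difference was -0.15, compared with -0.10 in all libraries.

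The pathways around both genes were not tested as sets, and none of their listed genes was called. Among 17 other genes of lipid-linked oligosaccharide assembly, limma called 0 in any comparison. In the averaged genotype difference 1 was higher and 1 lower at an unadjusted p under 0.05, against 9.12% of all genes. Under FLX, 5 of the 17 had an unadjusted p under 0.05 between genotypes, with *Dpagt1*, *Alg2* and *Alg11* lower and *Alg13* and *Alg10b* higher, against 16.6% of all genes, and the median over the 17 was -0.0454 beside -0.0557 over all genes. Among 17 endoplasmic reticulum stress genes, 0 were called in any comparison. In the averaged genotype difference 3 of the 17 were above 0 (median -0.0664, all genes 0.0069). An unadjusted p under 0.05 was reached by 2 of the 17, close to the 9.12% of all genes. *Creld1*, the paralogue of *Creld2*, stood at -0.13 there (unadjusted p = 0.0203, adjusted p = 0.438). Despite the shared promoter, *Alg12* and *Creld2* varied together only loosely across libraries (Pearson's r = 0.34 over 48 libraries after centring on group means). The genes most like *Creld2* were *Pdia3* (r = 0.83) and *Pdia4* (r = 0.83), both disulfide isomerases of the endoplasmic reticulum, whereas those most like *Alg12* were *Gm3608* (r = 0.79) and *Hint3* (r = 0.77).

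*Pim3* encodes a serine/threonine kinase of the PIM family, and *Mlc1* encodes a membrane protein of astrocyte endfeet whose loss causes a leukoencephalopathy with cysts in humans. In vehicle mice *Pim3* had a lowest, median and highest value of 24.6, 29.6 and 57.8 TPM in WT and 32.6, 41.0 and 72.5 TPM in Brd1+/-. The ranges overlapped, and the WT library at 57.8 TPM stood well above the other WT libraries, which ended at 36.7 TPM. The difference was 0.45 ± 0.18 (SE, unadjusted p = 0.0257, adjusted p = 0.485, exact permutation p = 0.0371). *Mlc1* was the most abundant of the 10 genes, with a mean of 150.0 TPM. In vehicle mice it ran from 95.9 to 173.0 TPM in WT and from 114.0 to 197.0 TPM, with a median of 163.0 TPM, in Brd1+/-. Of the Brd1+/- libraries 4 lay above the highest WT library. The difference was 0.30 ± 0.13 (SE, unadjusted p = 0.0312, adjusted p = 0.513, exact permutation p = 0.0409). Neither gene was called in vehicle mice, and under IMN both genotypes were close, with differences of -0.08 for *Pim3* and -0.0033 for *Mlc1*. Under FLX the differences were -0.18 and -0.24.

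Both genes followed glial markers across libraries. Correlations with a marker list used the mean log2(TPM + 0.1) of its markers, centred on group means over the 48 libraries. *Pim3* had r = 0.95 with the oligodendrocyte markers (Spearman's rho = 0.93, r = 0.94 without the 2 libraries farthest out). *Mlc1* had r = 0.87 with the astrocyte markers (rho = 0.89, r = 0.85). These values share library and tissue punch and are a description. In vehicle mice all 6 oligodendrocyte markers were higher in Brd1+/- at an unadjusted p under 0.05 (8.52% of all genes), with 0 called. The astrocyte marker sum was 1370 ± 293 TPM in Brd1+/- and 1100 ± 160 TPM in WT (SD, n = 8 each). With scores for striatal, oligodendrocyte and choroid plexus markers in the model, the vehicle difference was -0.03 for *Pim3* and 0.08 for *Mlc1*. The genes most like *Pim3* were *Unc5b* (r = 0.97) and *Ttyh2* (r = 0.97), and those most like *Mlc1* were *Ednrb* (r = 0.95) and *Gja1* (r = 0.93), the connexin of astrocyte gap junctions. The plot of members against markers shows these genes library by library, against summed marker TPM.

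**Figure D2:**
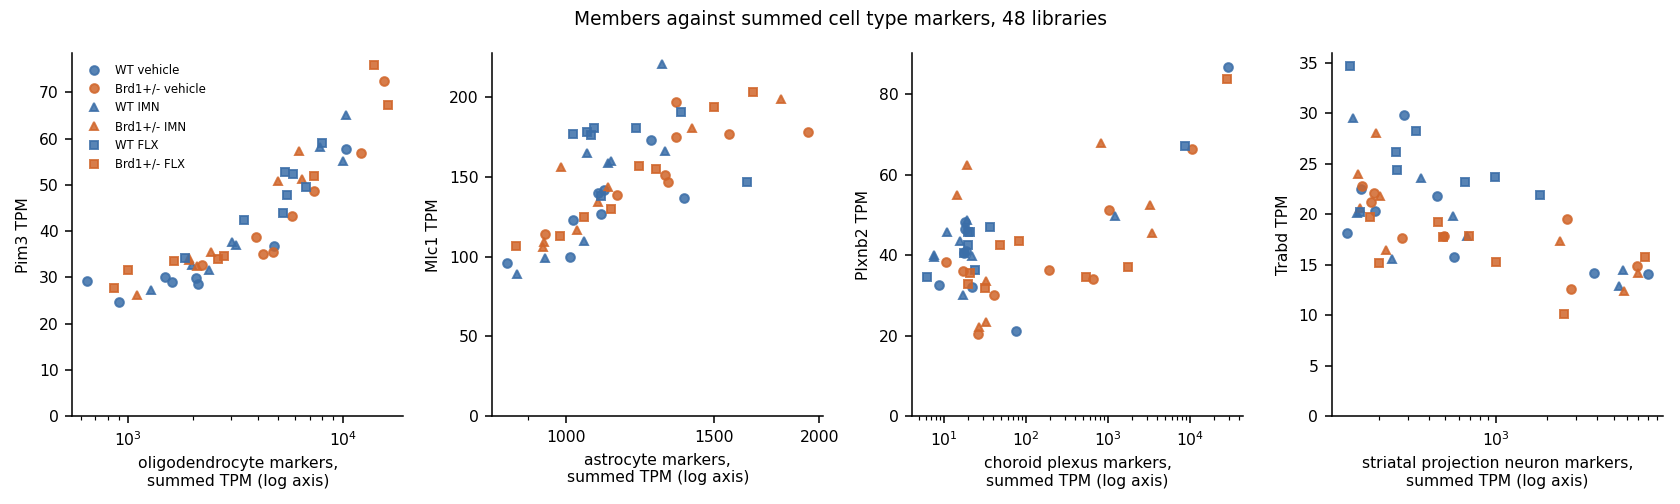
TPM of *Pim3*, *Mlc1*, *Plxnb2* and *Trabd* in each of the 48 libraries (vertical axes) against the summed TPM of oligodendrocyte, astrocyte, choroid plexus and striatal projection neuron markers (horizontal axes, log scale), with colour for genotype and shape for treatment. *Pim3* climbed along the oligodendrocyte sum and *Mlc1* along the astrocyte sum in all groups, the highest *Plxnb2* values lay at the highest choroid plexus sums, and *Trabd* was low where striatal markers were high.

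Among partners of *Mlc1* and other genes of astrocyte endfeet, a list of 8, *Lrrc8a* fell between genotypes under FLX (-0.62 ± 0.15, adjusted p = 0.0443). LRRC8A is a subunit of the volume-regulated anion channel. In the same comparison 2 more of the 8 were lower at an unadjusted p under 0.05 (16.6% of all genes, 11.3% lower), the potassium channel gene *Kcnj10* (-1.02, adjusted p = 0.0537) and *Gpr37l1* (-0.37, adjusted p = 0.107), and the median of the list was -0.253 beside -0.0557 over all genes. In WT mice *Kcnj10* (1.23, adjusted p = 0.0251) and *Gpr37l1* (0.52, adjusted p = 0.0322) were higher with FLX than with vehicle. So was the connexin gene *Gjb6* (1.03, adjusted p = 0.0498), the 1 called of the 7 astrocyte markers. At an unadjusted p under 0.05, 2 of the 7 were higher and 1 was lower there, beside 16.8% of all genes. The FLX effect differed between genotypes for *Kcnj10* (interaction -1.63, adjusted p = 0.0183) and *Gpr37l1* (interaction -0.68, adjusted p = 0.0334), while that of *Mlc1* did not pass (interaction -0.54, unadjusted p = 0.00655, adjusted p = 0.126). Oligodendrocyte markers moved with both results. All 6 were higher in WT FLX than in WT vehicle at an unadjusted p under 0.05 (median 1.21). All 6 were lower at such a p in the FLX interaction (median -2.07), with 0 called in either. At that p stood 16.8% of all genes in each comparison. Their part in these endfoot gene results was not tested. *Aqp4* and *Gja1* belong to both the endfoot and the astrocyte list. *Pim1* and *Pim2*, the other PIM kinases, gave 0 calls in any comparison and 0 unadjusted p-values under 0.05 between genotypes.

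**Figure D3:**
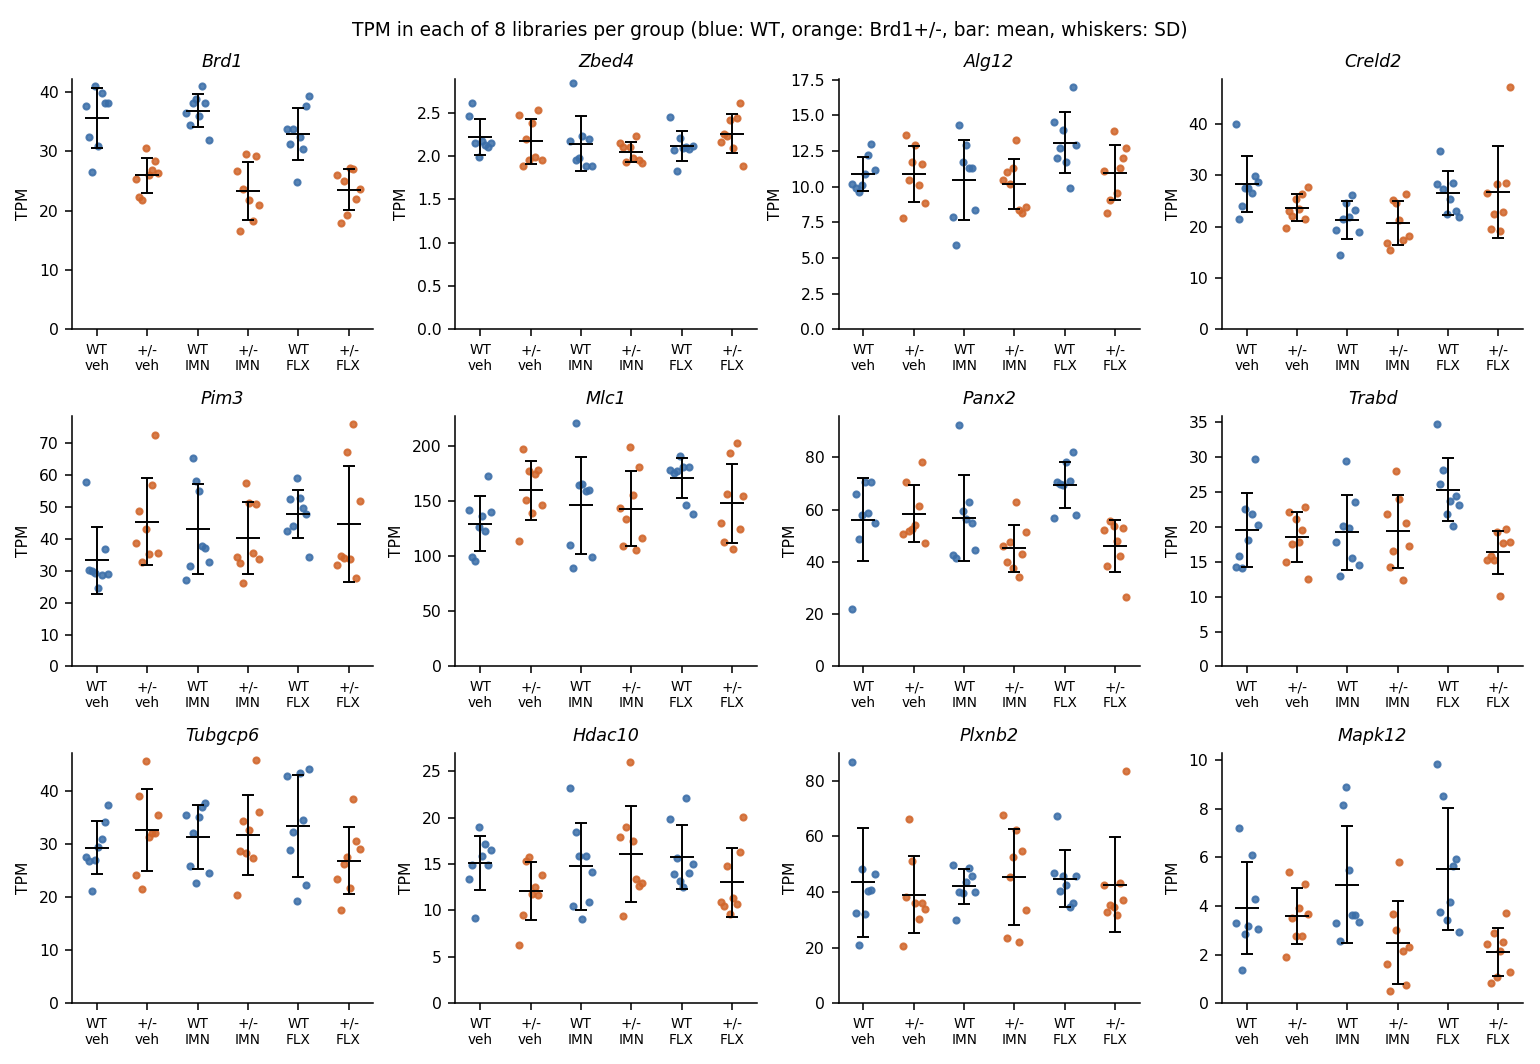
TPM of *Brd1*, the 10 neighbours and *Mapk12* in each of the 8 libraries of the 6 groups (blue WT, orange Brd1+/-), with a bar at the mean and whiskers of 1 SD. *Brd1* was lower in Brd1+/- under each treatment, *Panx2* and *Trabd* separated the genotypes under FLX alone, and single high libraries stand out for *Creld2*, *Pim3* and *Plxnb2*.

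*Panx2* and *Trabd* were the genes of the 10 called between genotypes, and both were lower in Brd1+/- than in WT mice under FLX. *Panx2* encodes a channel-forming pannexin expressed in neurons. Under FLX its lowest, median and highest values were 56.7, 70.3 and 82.1 TPM in WT and 26.4, 50.1 and 55.5 TPM in Brd1+/-. Every Brd1+/- library lay below every WT library. *Trabd*, next to it on the chromosome, encodes a protein of the TraB domain family. Its values were 20.2, 24.1 and 34.7 TPM in WT FLX and 10.1, 16.8 and 19.7 TPM in Brd1+/- FLX, again without overlap. The difference was -0.61 ± 0.14 for *Panx2* (SE, adjusted p = 0.0364) and -0.63 ± 0.14 for *Trabd* (SE, adjusted p = 0.0307), each with an exact permutation p of 0.000155. Relative to the WT mean, the Brd1+/- mean was -33.6% for *Panx2* and -35.4% for *Trabd*. These 2 of 10 stood against 1.54% of the 23635 genes tested that were called under FLX (1.38% called lower), and against 0.368% whose genotypes did not overlap. An unadjusted p under 0.05 was likewise reached by 2 of the 10 and by 16.6% of all genes (11.3% lower).

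In vehicle and IMN mice the same genes overlapped between genotypes. *Panx2* ran through 22.1, 58.4 and 70.7 TPM in WT vehicle and 47.1, 53.5 and 78.4 TPM in Brd1+/- vehicle, with a difference of 0.11 (95% CI -0.316 to 0.529). Under IMN it ran through 41.4, 55.6 and 92.4 TPM in WT and 34.1, 44.5 and 62.8 TPM in Brd1+/- (-0.30, unadjusted p = 0.0734, exact permutation p = 0.0861). *Trabd* ran through 14.1, 19.2 and 29.8 TPM in WT vehicle and 12.6, 18.6 and 22.8 TPM in Brd1+/- vehicle (-0.06). Under IMN it ran through 12.9, 18.8 and 29.5 TPM in WT and 12.4, 19.0 and 28.0 TPM in Brd1+/- (0.01). WT FLX held the highest mean of the 6 groups for both genes, 69.5 ± 8.76 TPM for *Panx2* and 25.3 ± 4.53 TPM for *Trabd*. The other 5 group means ran from 45.3 to 58.4 TPM for *Panx2* and from 16.4 to 19.6 TPM for *Trabd*. The difference between the FLX and the vehicle contrast did not pass the threshold for *Panx2* (interaction -0.72, unadjusted p = 0.0069, adjusted p = 0.129) or *Trabd* (interaction -0.57, unadjusted p = 0.0115, adjusted p = 0.161), so the genotype difference was not shown to depend on FLX.

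The calls of *Panx2* and *Trabd* were close to the threshold. With median-ratio scaling the differences were -0.54 (adjusted p = 0.0716) and -0.56 (adjusted p = 0.0537), and with a single fit of all 48 libraries the adjusted p-values were 0.0817 and 0.0629. With the replicate number as a block they were 0.0624 and 0.0963. Leaving out each library in turn kept the difference between -0.66 and -0.50 for *Panx2*, past the threshold in 8 of 16 fits, and between -0.68 and -0.54 for *Trabd*, past it in 10 of 16. Neither gene was called without WT FLX replicate 1, 2, 3 or 7. Of these, replicates 1, 2 and 3 carry higher sample codes than every Brd1+/- FLX library, and replicate 7 does not. WT FLX replicates 4 and 5 also carry such codes. Both genes were still called without replicate 4, and 1 of them without replicate 5. With the sample code range as a term, neither gene was called. Striatal markers moved with these genes. *Trabd* had r = -0.68 with their mean log2(TPM + 0.1) over the 48 libraries after centring (rho = -0.63, r = -0.64 without the 2 farthest). *Panx2* had r = -0.47 (rho = -0.48, r = -0.47). The summed TPM of the striatal markers was 575 ± 584 in WT FLX (highest 1830) and 1650 ± 2540 in Brd1+/- FLX (highest 7660). Of these 7 markers, 0 had an unadjusted p under 0.05. With the striatal, oligodendrocyte and choroid plexus scores in the model the differences were -0.49 for *Panx2* (adjusted p = 0.196) and -0.58 for *Trabd* (adjusted p = 0.131). Without the choroid plexus-rich libraries, 7 WT against 6 Brd1+/- FLX libraries gave -0.52 (adjusted p = 0.121) and -0.70 (adjusted p = 0.129).

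*Panx2* and *Trabd* lie 1556 bases apart on the same strand, yet across libraries they were only moderately alike (r = 0.35). The genes most like *Panx2* were *Cend1* (r = 0.88) and *Pfkm* (r = 0.87), and those most like *Trabd* were *Ankrd55* (r = 0.82) and *Sparc* (r = 0.81). Of the other pannexins *Panx1* was tested and *Panx3* was not, and *Panx1* was called in no comparison (-0.30 between genotypes under FLX).

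**Figure D4:**
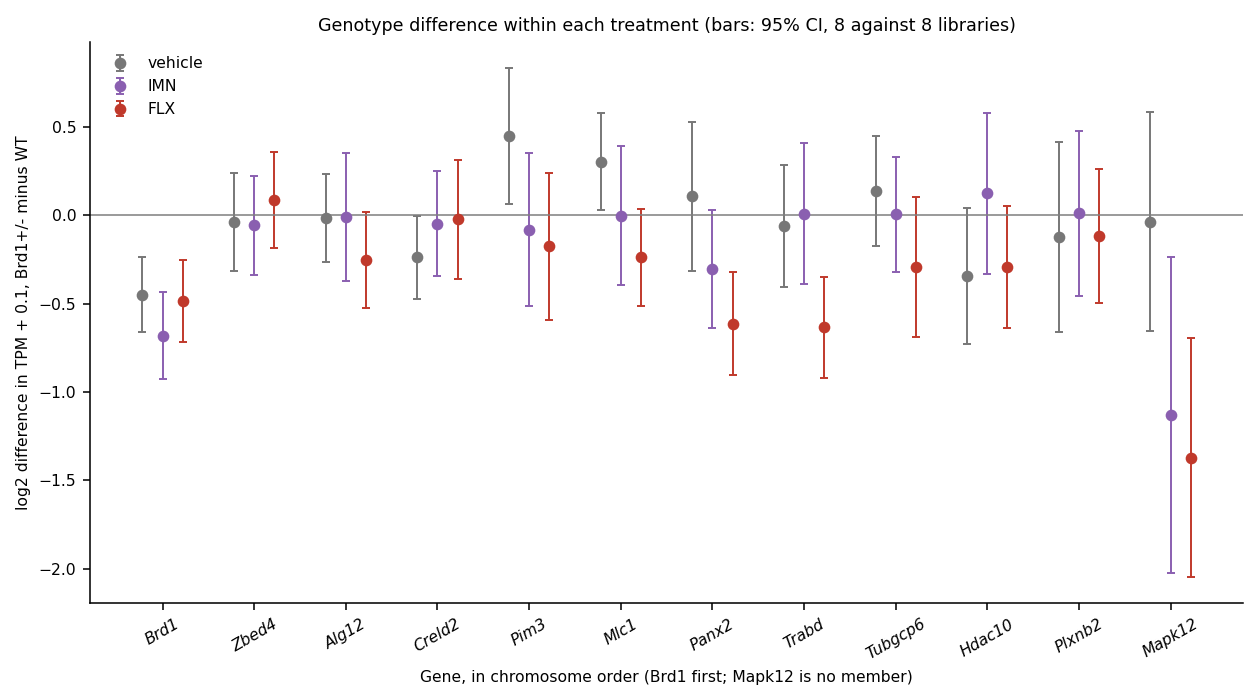
Genotype difference within vehicle, IMN and FLX mice, as Brd1+/- minus WT in log2(TPM + 0.1) for *Brd1*, the 10 neighbours in chromosome order and *Mapk12*, with bars for the 95% CI over 8 against 8 libraries. *Brd1* lay below 0 in all 3 treatments, while *Panx2* (-0.61) and *Trabd* (-0.63) were lower under FLX and *Pim3* (0.45) and *Mlc1* (0.30) stood above 0 in vehicle mice.

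*Tubgcp6*, *Hdac10* and *Plxnb2*, the farthest 3 of the 10, did not differ past the threshold under any treatment. *Tubgcp6* encodes a subunit of the gamma-tubulin ring complex that nucleates microtubules, and had a mean of 31.0 TPM. Its genotype differences were 0.14 in vehicle, 0.01 in IMN and -0.29 in FLX (unadjusted p = 0.137). *Hdac10*, which ends 194 bases from the start of *Tubgcp6* and encodes a deacetylase that acts on polyamines, had a mean of 14.5 TPM. It stood at -0.34 in vehicle (unadjusted p = 0.0788), 0.12 in IMN and -0.29 in FLX (unadjusted p = 0.0903), and 5 of the 8 Brd1+/- FLX libraries lay below the lowest WT FLX library. *Plxnb2*, a receptor for class 4 semaphorins, had a mean of 42.9 TPM and differences of -0.12, 0.01 and -0.12. Its values were set apart by single libraries rather than by genotype. WT vehicle replicate 1 had 86.8 TPM, Brd1+/- FLX replicate 8 had 83.6 TPM and WT FLX replicate 2 had 67.2 TPM, and these held choroid plexus marker sums of 29400, 28700 and 8690 TPM. Over the 48 libraries *Plxnb2* had r = 0.66 with the mean log2(TPM + 0.1) of those markers after centring (rho = 0.50, r = 0.52 without the 2 farthest).

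Relatives of these genes gave 0 calls in any of the 10 comparisons, whether the 9 other genes of the gamma-tubulin complex, the 10 other histone deacetylases or the 16 genes of the plexin and class 4 semaphorin list. In the averaged genotype difference 1, 1 and 0 of them had an unadjusted p under 0.05, against 9.12% of all genes. Under FLX the unadjusted p was under 0.05 between genotypes for *Tubg1* (-0.28) and *Tubg2* (-0.33), which encode gamma-tubulin itself, and for *Hdac5* (-0.22) and *Hdac7* (-0.88). Of the 16 genes of the plexin and semaphorin list, 1 was higher (*Plxnd1*, 1.23) and 2 were lower at such a p, and 2 of the 16 were above 0 (median -0.258). At that p stood 16.6% of all genes. The genes most like *Tubgcp6* were *Gm25517* (r = 0.65) and *Gm5130* (r = 0.64), those most like *Hdac10* were *Tenm2* (r = 0.73) and *Napepld* (r = 0.73), and those most like *Plxnb2* were *Tbc1d9* (r = 0.87) and *Iqcg* (r = 0.87). *Zbed4* had no close match, the best being *Gm15583* (r = 0.65) and *Xrcc4* (r = 0.45). These are the highest of 19222 genes compared, over 48 libraries centred on group means. Pairs that follow each other in the order of *Brd1* and the 10 genes were little more alike than other pairs. Those 10 pairs had a median r of 0.34 (-0.24 to 0.71, highest for *Pim3* and *Mlc1*), and the other 45 pairs 0.26. *Brd1* with *Zbed4* had -0.16. Genes outside the set lie between some of the consecutive pairs, such as *Ttll8* between *Pim3* and *Mlc1*.

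The MAP kinase genes *Mapk12* and *Mapk11* lie between *Hdac10* and *Plxnb2* and are named because *Mapk12* was called under FLX. Both encode p38 kinases. *Mapk12* (ENSMUSG00000022610, chr15:89130584-89140703, minus strand) had a lowest, median and highest value of 2.95, 4.9 and 9.83 TPM in WT FLX and 0.846, 2.3 and 3.72 TPM in Brd1+/- FLX. The ranges overlapped, with 7 of the 8 Brd1+/- libraries below the lowest WT library. The difference was -1.37 ± 0.32 (SE, adjusted p = 0.0416, exact permutation p = 0.000622). It was -1.13 under IMN (unadjusted p = 0.0161, exact permutation p = 0.0219), -0.04 in vehicle and -0.85 averaged over treatments (adjusted p = 0.0561). *Mapk11* (ENSMUSG00000053137) stood at -0.85 under FLX (unadjusted p = 0.041) and -0.62 averaged. *Mapk11* had r = -0.69 and *Mapk12* r = -0.53 with the striatal markers. The *Mapk12* call was past the threshold in 5 of 16 fits that each left out 1 library, and its adjusted p was 0.136 without the choroid plexus-rich libraries (-1.50). In all, 3 of the 20 genes tested within 500 kb of *Brd1* were called under FLX, and 0 of the 7 within 250 kb.

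The rest of chromosome 15 put these counts in scale. Under FLX 22.4% of the 746 genes tested on the chromosome had an unadjusted p under 0.05, beside 16.6% of all genes. Of the 746, 16 were called, where 1.54% of all genes were. In the 5 Mb that hold *Brd1* and its neighbours the share at that unadjusted p was 28.8% of 59 genes, and 3 were called. In the 5 Mb before it was 25.0% of 96 genes, with 0 called. In the 5 Mb after it was 5 of 25 genes, with 0 called. In the 5 Mb from 95 Mb it was 34.1% of 85 genes, with 3 called.

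Counted by treatment, the 10 genes gave calls under FLX alone. In vehicle mice 0 of the 10 were called, against 0.708% of genes, and 3 had an unadjusted p under 0.05, against 8.52%, namely *Creld2*, *Pim3* and *Mlc1*. For 0 of the 10 did the genotypes not overlap there (0.453% of genes) or under IMN (0.0382% of genes). Under IMN 0 were called (0.017% of genes) and 0 had an unadjusted p under 0.05 (3.58% of genes). Under FLX 9 of the 10 differences were below 0, with a median of -0.246 beside -0.0557 over all genes. Of all 364 genes called under FLX 39 were higher, and with median-ratio scaling 52 of 239 were.

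None of the 10 genes differed between drug and vehicle past the threshold. IMN and FLX were compared with the same vehicle libraries, and the values below share them. All vehicle libraries carry sample codes from a lower range than all drug libraries. The drug and whatever the codes follow therefore cannot be told apart in any drug comparison or interaction. Within IMN and within FLX the highest codes belong to WT libraries, so the codes also differed between genotypes there. In WT mice IMN gave 0 calls among the 10 and 0.0% of all genes, where 1084 genes (4.58%) had an unadjusted p under 0.05. *Creld2* was lowest relative to vehicle there (-0.41, unadjusted p = 0.00696, adjusted p = 0.97, exact permutation p = 0.00466), with 21.3 ± 3.69 TPM against 28.2 ± 5.45 TPM. In WT mice FLX gave 0 calls (0.335% of genes) and an unadjusted p under 0.05 for 4 of the 10 (16.8% of genes), all higher (10.5% of genes). They were *Alg12* (0.25), *Pim3* (0.55, adjusted p = 0.0939), *Mlc1* (0.41, adjusted p = 0.0931) and *Trabd* (0.39). All 6 oligodendrocyte markers were also higher at an unadjusted p under 0.05 (median 1.21, summed level 5250 ± 1890 TPM in WT FLX and 2990 ± 3240 TPM in WT vehicle). With the striatal, oligodendrocyte and choroid plexus scores in the model the differences were 0.29 for *Pim3*, 0.18 for *Mlc1* and 0.24 for *Trabd*. Of the WT FLX libraries 6 of 8 lay above the highest WT vehicle library for *Mlc1*. Without the choroid plexus-rich libraries *Pim3* was called (0.65, adjusted p = 0.0294). In the same comparison the immediate-early genes *Egr1* (-1.15, adjusted p = 0.0287) and *Npas4* (-0.95, adjusted p = 0.0429), which mark recent neuronal activity, were lower. In Brd1+/- mice IMN gave 0 calls (0.776% of genes) with *Panx2* at -0.37 (unadjusted p = 0.0112, as under 0.05 in 9.3% of genes), and FLX gave 0 calls (0.731% of genes) with *Panx2* at -0.35 (unadjusted p = 0.0313, as under 0.05 in 6.94% of genes).

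Interactions of genotype and drug gave 0 calls among the 10, both for IMN (0.536% of genes), where 0 of the 10 had an unadjusted p under 0.05 (9.24% of genes), and for FLX (1.71% of genes). For FLX 4 of the 10 had an unadjusted p under 0.05 (16.8% of genes), all below 0 (11.7% of genes). They were *Panx2* and *Trabd*, given above, *Mlc1* (-0.54) and *Pim3* (-0.62, adjusted p = 0.243). All 6 oligodendrocyte markers were likewise below 0 at such a p (median -2.07). With the cell type scores in the model the interaction was 0.045 for *Pim3*, -0.15 for *Mlc1*, -0.60 for *Panx2* and -0.32 for *Trabd*. The median over the 10 was -0.336 beside -0.102 over all genes, and the latter was -0.0163 with median-ratio scaling. *Brd1* itself had an FLX interaction of -0.04 (95% CI -0.336 to 0.261) and an IMN interaction of -0.23 (95% CI -0.542 to 0.0784). The immediate-early genes called in the FLX interaction, *Egr2* (2.49, adjusted p = 0.0426), *Npas4* (1.62, adjusted p = 0.0263) and *Nr4a1* (1.50, adjusted p = 0.0459), were higher, opposite in sign to the 4 neighbours.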

How the data were processed

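RNA from amygdala punches of 48 female mice had been extracted, made into libraries with a TruSeq kit and sequenced on a HiSeq2000 as single-end reads, per the labels and the study's methods. The authors aligned the reads to GRCm38 with HISAT2 2.1.0, quantified genes with StringTie 1.3.4 and deposited TPM, which scales each gene's reads by gene length and by library. Since the sum is fixed, genes that go up push the share of others down, and depth and counts cannot be recovered. Whether strand was used is not given in the sources used here. The design text names other brain regions and another sequencer; the sample labels say amygdala and were followed. Columns left unmapped numbered 0, and 0 pairs of libraries held identical values.

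Values were transformed to log2(TPM + 0.1), and a gene was tested with at least 0.1 TPM in at least 8 libraries of the fit. The design had allowed for TPM, so limma 3.58.1 (R 4.3.3) with a trended prior replaced the authors' count test. Fits used the 16 libraries of the groups compared, all 48 for the averaged genotype contrast and the 32 of the 4 groups concerned for interactions. Adjusted p-values (Benjamini-Hochberg over all genes tested) under 0.05 were called. Tests were two-sided, and single values were also compared by exact permutation over 12870 arrangements. Libraries are separate mice, and p-values measure the spread between them.

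The members, gene lists and tests were chosen with earlier results of these data known. Named are *Brd1*, the 10 members, other genes within 500 kb called between genotypes (with *Mapk11*, added after its values were seen, as were the listed relatives given with unadjusted p-values), called list members (up to 4 per list and comparison) and the 2 genes with the highest correlation to each member among those with a mean of at least 1 TPM. Coordinates and symbols came from GENCODE M21 on GRCm38 (52489 of 52636 identifiers found), and promoters from RefSeq on GRCm38.p6 (250 bases before to 50 after each start). The alternatives were other pseudocounts, filters, scalings and priors, a single fit of all libraries, a block by replicate number, the range of sample codes and cell type scores as covariates, another window, and leaving out each library. Leaving out the 9 libraries with at least 1000 TPM of choroid plexus markers was added after the data had been seen. The code was tested on simulated data.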

Additional observations from a re-analysis of the deposited data

Results flagged for a closer look

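For *Brd1* and the 10 genes in each of the 6 groups, 66 groups of 8 libraries were searched for a library whose gap to its nearest neighbour exceeded Dixon's 95% critical value. Chance gives about 1 such group in 20, and 10 were found.

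*Plxnb2* had 3 of them. WT vehicle replicate 1 had 86.8 TPM, with the others from 21.1 to 48.2 TPM. WT FLX replicate 2 had 67.2 TPM, with the others from 34.5 to 46.9 TPM. Brd1+/- FLX replicate 8 had 83.6 TPM, with the others from 31.8 to 43.4 TPM. *Creld2* stood apart in 2 of the same libraries, at 40.0 TPM in WT vehicle replicate 1 (others 21.5 to 29.8 TPM) and at 47.1 TPM in Brd1+/- FLX replicate 8 (others 19.1 to 28.5 TPM). WT vehicle replicate 1 was also high for *Pim3*, at 57.8 TPM (others 24.6 to 36.7 TPM), and low for *Panx2*, at 22.1 TPM (others 48.6 to 70.7 TPM). The summed choroid plexus markers of these libraries, 29400 TPM in WT vehicle replicate 1, 28700 TPM in Brd1+/- FLX replicate 8 and 8690 TPM in WT FLX replicate 2, were the highest of their groups, and their part in these values was not tested.

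*Panx2* was high in WT IMN replicate 3, at 92.4 TPM (others 41.4 to 63.1 TPM). *Trabd* was low in Brd1+/- FLX replicate 5, at 10.1 TPM (others 15.2 to 19.7 TPM), a library of the contrast in which *Trabd* was called. *Zbed4* was high in WT IMN replicate 2, at 2.84 TPM (others 1.89 to 2.23 TPM).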

How the results depend on the processing

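The calls of *Panx2* and *Trabd* under FLX depended on the settings. Of the 10 genes, 2 were called in the analysis reported. With no filter, quantile normalization or eBayes without a trend 1 was called. With median-ratio scaling, one fit of all libraries, the replicate block, the sample code range as a term, the cell type scores or the choroid plexus-rich libraries left out, 0 were called. Leaving out each library gave 0 to 2, with 0 without WT FLX replicate 1, 2, 3 or 7 and 1 without WT FLX replicate 5 or Brd1+/- FLX replicate 2, 3, 5, 7 or 8. The cause was not tested; the last of these settings has fewer samples. With the choroid plexus-rich libraries left out, 1 gene (*Pim3*, 0.65, adjusted p = 0.0294) was called for FLX against vehicle in WT. In a window of 250 kb, 0 genes were called under FLX, since *Panx2*, *Trabd* and *Mapk12* lie outside it. The count of members with an exact permutation p under 0.05 under IMN went from 0 to 1 with median-ratio scaling.

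Of 404 values of single genes under other settings, 395 kept their direction and 9 were reversed. *Zbed4*, averaged over treatments, turned from -0.0018 to 0.0123 with median-ratio scaling, 0.0049 with the code range, 0.0033 with an astrocyte score and 0.0162 without the choroid plexus-rich libraries. *Pim3* averaged turned to -0.0215 and *Mlc1* averaged to -0.0592 with the astrocyte score, and *Mlc1* to -0.0104 without the choroid plexus-rich libraries. With the cell type scores *Pim3* turned to -0.0303 in vehicle mice and its FLX interaction to 0.045. Leaving out each library moved *Zbed4* between -0.0122 and 0.0173 and *Mlc1* between -0.0099 and 0.0522.

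The labels give replicate numbers without saying that they pair mice. Correlations of same-numbered libraries were above 0.1 in 2 of 8 pairs for genotype in FLX (-0.155 to 0.141) and in vehicle, in 5 of 8 in IMN (-0.322 to 0.421) and for IMN in Brd1+/- mice (-0.336 to 0.347), and in 2 or 3 of 8 in the other drug comparisons. No comparison had every pair above 0.1, so the numbers were not taken as pairs. The replicate block changed no other count of the 10 genes called. TPM hides depth, so low values such as those of *Zbed4* carry an unknown counting error.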
